A study of Mus musculus with 20 samples.

Results

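The genes described here are 8 genes of the connective tissue under and around the sensory epithelium of the mouse utricle: *Coch* (cochlin), *Otos* (otospiralin), *Pou3f4*, *Tbx18*, *Dcn* (decorin), *Lum* (lumican), *Cp* (ceruloplasmin) and *Vim* (vimentin). They were chosen by name, and all 8 were found among the 25655 genes listed in the deposited count tables. The utricle is a balance organ of the inner ear, and its RNA was sequenced from 4 groups of 5 libraries, numbered 1 to 20. All mice were C57BL/6J females operated on at 8 weeks of age and examined 4 weeks later. The sham + v group (replicates 1 to 5) had a sham operation and a vehicle pellet. The OVX + v group (replicates 6 to 10) had an ovariectomy (OVX), which removes the main source of estrogen, and a vehicle pellet. The OVX + E2 group (replicates 11 to 15) had an ovariectomy and a pellet of 50 µg of estradiol for 60 days. The OVX + RAL group (replicates 16 to 20) had an ovariectomy and a pellet of 2.4 mg of raloxifene, a selective estrogen receptor modulator, for 60 days. The sources used here do not say whether each library came from 1 mouse, so that the exact permutation p-values refer to these libraries, whose spread may be technical. The edgeR p-values come from a dispersion fitted across genes and did not always follow the spread between the libraries of a gene. For *Coch* in the sham + v comparison the standard error was 0.116 by edgeR and 0.214 from the libraries on log2(CPM + 1).

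The connective tissue of the inner ear is made by fibrocytes and fibroblasts that derive from the mesenchyme around the otic vesicle. Cochlin, a secreted protein with an LCCL domain and von Willebrand factor type A domains, is among the most abundant proteins of the inner ear, and otospiralin is a small secreted protein of its fibrocytes. The transcription factors Pou3f4 and Tbx18 are needed in the otic mesenchyme for these fibrocytes to form. Decorin and lumican are small leucine-rich proteoglycans that bind collagen fibrils, ceruloplasmin is a copper-containing ferroxidase of iron export, and vimentin is the intermediate filament protein of mesenchymal cells, present also in endothelial cells and glia. Changes in the human genes for cochlin and Pou3f4 cause hearing loss.

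The promoters of *Coch* and *Otos* are shown because they are the most abundant of the 8 transcripts, and those of *Pou3f4* and *Vim* because each had an exact permutation p under 0.05 against the OVX + v group in 1 of the comparisons below. Each is given 5′ to 3′ on the strand of the gene, from 250 bases before the RefSeq start site to 50 bases from it on, as listed by RefSeq for GRCm38.p6 and located by exact match on GRCm39. Capitals mark the letters TATAAA and CCAAT on either strand. The *Coch* window lies at chr12:51639874-51640173 on the plus strand, that of *Otos* at chr1:92576514-92576813 on the minus strand, that of *Pou3f4* at chrX:109857735-109858034 on the plus strand and that of *Vim* at chr2:13578872-13579171 on the plus strand.
Coch: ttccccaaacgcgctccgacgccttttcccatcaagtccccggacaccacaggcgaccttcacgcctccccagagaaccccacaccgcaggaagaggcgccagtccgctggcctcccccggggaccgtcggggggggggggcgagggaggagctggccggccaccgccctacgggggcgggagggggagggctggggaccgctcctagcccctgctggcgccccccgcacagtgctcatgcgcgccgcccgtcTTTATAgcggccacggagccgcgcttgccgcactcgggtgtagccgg
Otos: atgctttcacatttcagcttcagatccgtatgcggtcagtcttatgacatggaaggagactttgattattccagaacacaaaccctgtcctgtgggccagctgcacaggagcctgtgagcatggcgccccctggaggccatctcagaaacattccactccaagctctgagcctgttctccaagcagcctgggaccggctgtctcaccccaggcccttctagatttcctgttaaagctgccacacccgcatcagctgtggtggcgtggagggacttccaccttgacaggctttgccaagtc
Pou3f4: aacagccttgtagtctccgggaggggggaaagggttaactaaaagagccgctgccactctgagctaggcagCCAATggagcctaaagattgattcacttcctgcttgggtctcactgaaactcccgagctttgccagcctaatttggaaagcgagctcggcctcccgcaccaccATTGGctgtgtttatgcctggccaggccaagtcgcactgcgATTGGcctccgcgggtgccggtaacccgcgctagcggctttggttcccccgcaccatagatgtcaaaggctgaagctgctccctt
Vim: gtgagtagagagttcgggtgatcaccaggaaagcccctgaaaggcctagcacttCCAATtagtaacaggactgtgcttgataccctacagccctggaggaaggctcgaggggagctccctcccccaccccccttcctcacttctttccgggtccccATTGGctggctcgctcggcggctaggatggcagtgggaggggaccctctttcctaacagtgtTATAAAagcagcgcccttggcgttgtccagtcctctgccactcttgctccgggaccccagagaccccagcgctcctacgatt

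The 4 windows differed in composition. The *Coch* window held 73.7% G and C and 32 CpG dinucleotides, against 55.0% and 6 for *Otos*, 57.7% and 15 for *Pou3f4* and 59.3% and 11 for *Vim*, where the median of all RefSeq promoters was 52.7%. *Vim* had TATAAA 32 bases before its start site and *Coch* had it on the opposite strand 3 bases after it, a motif found in 13.6% of 32851 promoters of this length. CCAAT stood 3 times in the *Pou3f4* window and 2 times in that of *Vim*, and occurred in 37.4% of promoters. Of the 8 genes, 6 had a promoter entry, the exceptions being *Dcn* and *Lum*. On either strand, the full palindromic estrogen response element (half-sites GGTCA and TGACC set 3 bases apart, 0.07% of promoters), the octamer ATGCAAAT that POU factors bind (1.74%) and the T-box half-site AGGTGTGA (1.28%) were not among the letters of these windows.

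The genes lie at chr12:51640124-51652554 (*Coch*), chr1:92571940-92576563 (*Otos*), chrX:109857886-109860813 (*Pou3f4*), chr9:87584853-87613313 (*Tbx18*), chr10:97315471-97354005 (*Dcn*), chr10:97400990-97408565 (*Lum*), chr3:20011218-20063309 (*Cp*) and chr2:13578738-13587637 (*Vim*) of GRCm39, as deposited. *Dcn* and *Lum* are neighbours on the same strand, 46984 bases apart with 0 protein-coding genes between them. No second genomic copy of the last 400 nucleotides was found for any of the 8 transcripts. The kit reads the 3′ ends of mRNA, and the annotated 3′ end of the canonical transcript lay 4150 bases from the deposited end of the gene for *Dcn* and 16007 bases for *Cp*, against 762 or less for the other 6. At its 3′ end *Otos* overlaps 1 annotated antisense gene, *Gm70685*, and the part of these features in the counts was not tested.

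*Coch* was one of the most abundant transcripts of the utricle. Levels are given in CPM, the reads of a gene scaled to the total of its library. They are not divided by transcript length, since the kit reads 3′ ends, and levels of different genes are compared here only by rank on this scale. The mean level of *Coch* over the 20 libraries was 5807 CPM, rank 12 of 15803 genes with a count, and it stood between rank 6 and rank 17 in every library. *Otos* had 2409 CPM (rank 23). *Dcn* had 749 CPM (rank 140), *Cp* 372 CPM (rank 333), *Tbx18* 174 CPM (rank 885), *Pou3f4* 96.8 CPM (rank 1796) and *Vim* 85.3 CPM (rank 2101). *Lum* was the least abundant of the 8, with 14.5 CPM (rank 8373) and no count in 6 libraries. Together the 8 genes took 0.679% to 1.49% of the counts of a library.

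Libraries held 1123053 to 2081747 counts, the OVX + E2 libraries 1123053 to 1507667, and 3 counts, the smallest number taken as detection, corresponded to 1.44 to 2.67 CPM. Genes with a count numbered 7427 to 9680 in the OVX + E2 libraries, all below the 10004 to 10694 of the OVX + v libraries, against 8651 to 10625 in the sham + v and 10103 to 10290 in the OVX + RAL libraries. *Otor* (otoraplin) and *Car3*, 2 further genes of inner ear fibrocytes, were detected in all 20 libraries with means of 1047 and 832 CPM. The summed level of 10 hair cell markers was 906 to 2154 CPM and that of 9 markers of supporting and transitional epithelial cells 1941 to 4878 CPM. In whole tissue, fewer cells of a type and less RNA per cell cannot be told apart.

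**Figure D1:**
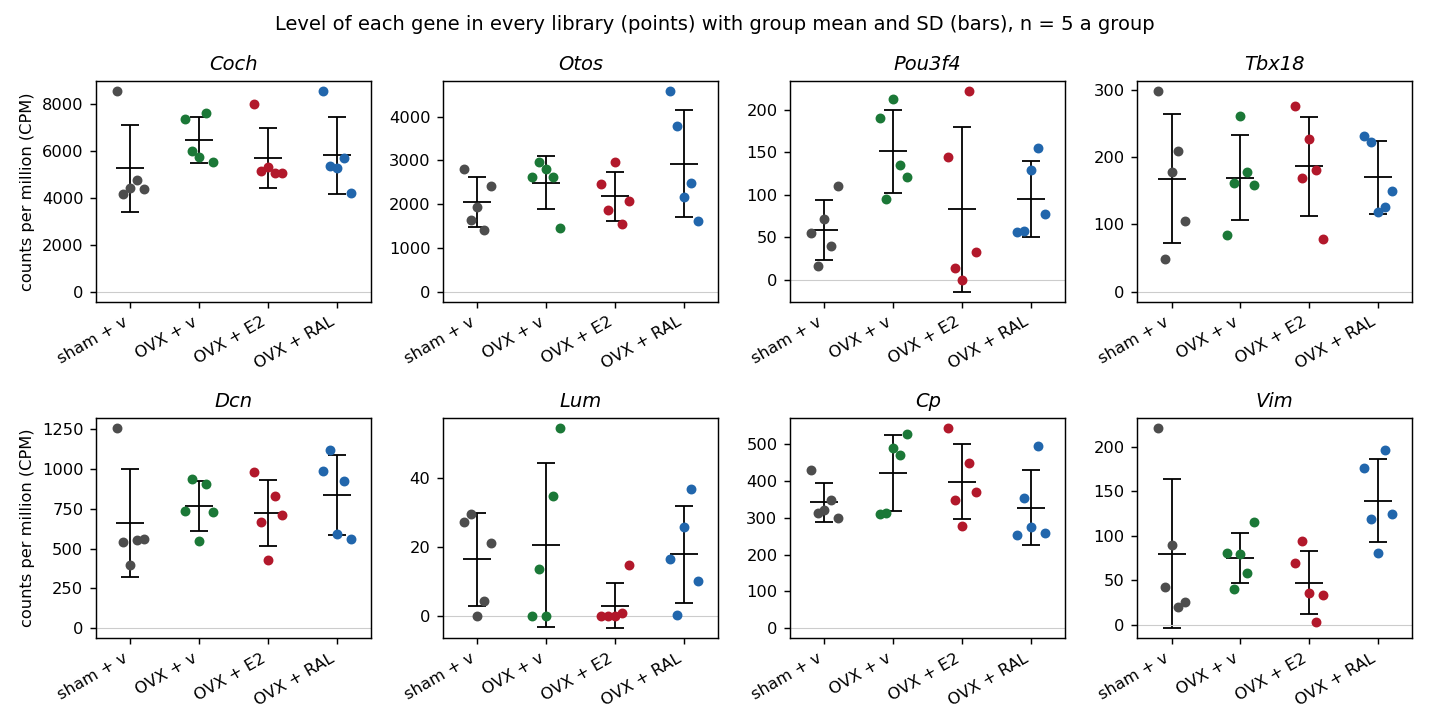
Level of each of the 8 genes in CPM (vertical axes, each starting near 0) in the 4 groups; every point is 1 library, and the black bars are the mean and SD of 5 libraries. The 5 points of every gene and group overlap those of the OVX + v group; *Coch* replicates 1, 11 and 16 stand above the other libraries of their groups.

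In the comparison of the sham + v with the OVX + v group, which asks what ovariectomy did to these genes, the lowest unadjusted p-values were those of the transcription factor gene *Pou3f4* and of *Coch*, whose means were lower in intact mice. *Pou3f4* had 55.5, 15.7, 71.7, 40.3 and 110.1 CPM in sham + v replicates 1 to 5 and 191, 94.7, 213, 135 and 121 CPM in OVX + v replicates 6 to 10. The lowest OVX + v library was above 4 of the 5 sham + v libraries. The means were 58.7 ± 35.4 and 151 ± 49.1 CPM (SD, n = 5 each), or -1.36 as the log2 fold change fitted by edgeR (standard error 0.538), with an adjusted p = 0.363 (quasi-likelihood test, Benjamini-Hochberg). On log2(CPM + 1) the difference was -1.54, with p = 0.0159 in a two-sided exact permutation test over all groupings of 5 and 5 libraries, in which the smallest p is 0.00794. An exact permutation p under 0.05 was reached by 1 of the 8 genes here, and by 3.85% of 13825 genes tested. Without single libraries the *Pou3f4* difference ranged from -1.83 to -1.14 with exact permutation p-values of 0.00794 to 0.0317, under 0.05 in 10 of 10 tests. Relative to *Coch* in the same library the difference was -1.20 with an exact permutation p = 0.0714.

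*Coch* had 8535, 4164, 4402, 4772 and 4386 CPM in sham + v replicates 1 to 5, and 7369, 5999, 5743, 7631 and 5542 CPM in OVX + v replicates 6 to 10. Of the sham + v libraries 4 lay below every OVX + v library, and replicate 1 lay above every one of them. By edgeR *Coch* was at -0.30 on the log2 scale (standard error 0.116, adjusted p = 0.363, edgeR), or 5252 ± 1848 against 6457 ± 970.4 CPM (SD, n = 5 each). The exact permutation p was 0.143. Without replicate 1 the log2 fold change was -0.54 with an adjusted p of 0.000436 (edgeR, where 0.0735% of genes were past 0.05), and the 2 groups no longer overlapped, as for 1.51% of genes. The exact permutation p of these 9 libraries was 0.00794, the smallest that they allow, where 4.78% of genes had a p under 0.05. Leaving out any of the other 9 libraries gave an adjusted p of *Coch* above 0.05.

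The other secreted proteins and the remaining genes differed by less than the spread between libraries. *Otos* had 2044 ± 572 CPM in the sham + v group and 2489 ± 603 CPM in the OVX + v group (SD, n = 5; log2 fold change -0.28, adjusted p = 0.551, edgeR). *Dcn* had 662 ± 341 against 771 ± 157 CPM (-0.22), *Cp* 342 ± 52.2 against 422 ± 103 CPM (-0.30), *Tbx18* 168 ± 96.5 against 169 ± 63.4 CPM (-0.01), *Lum* 16.5 ± 13.4 against 20.6 ± 23.6 CPM (-0.32) and *Vim* 79.8 ± 83.7 against 74.7 ± 28.3 CPM (0.10), each with an edgeR adjusted p of 1.00 after rounding. For *Lum* and *Vim* the direction depended on the scale, since the difference on log2(CPM + 1) was 0.37 and -0.38. *Dcn* replicate 1 had 1261 CPM where the other 4 sham + v libraries had 397 to 562 CPM. Without that library the exact permutation p of *Dcn* was 0.0317 with a difference of -0.58, the 1 of 10 such tests under 0.05 (others up to 0.698).

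At an adjusted p of 0.05 (edgeR), 0 of the 8 genes were called, where 0.0145% of all genes were. DESeq2 and limma called 0 of the 8 as well. At an unadjusted p under 0.05 by edgeR 2 of the 8 (*Coch* and *Pou3f4*) were counted, beside 12.5% of all genes. The log2 fold change was below 0 for 7 of the 8, with a median of -0.29 against -0.02 over all genes tested.

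In the OVX + E2 group, which asks whether estradiol replacement changed these genes after ovariectomy, *Coch* again lay slightly lower in most libraries and *Lum* was nearly undetected. *Coch* had 7992, 5119.9, 5315, 5075 and 5045 CPM in replicates 11 to 15. Replicate 11 lay above every OVX + v library and the other 4 below every one. On the log2 scale *Coch* was at -0.18 (standard error 0.0901, adjusted p = 0.355, edgeR; exact permutation p = 0.222). Of the 10 exact permutation tests without single libraries 1 was under 0.05 (p = 0.0238 and a difference of -0.32 without replicate 11), with p up to 0.452 in the others. The edgeR adjusted p stayed above 0.05 in each of the 10 fits that left out 1 library, with a lowest value of 0.168.

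*Lum* counts in OVX + E2 replicates 11 to 15 were 0, 0, 0, 1 and 21, and in OVX + v replicates 6 to 10 they were 0, 22, 0, 70 and 78. Only 1 OVX + E2 library thus reached 3 counts, against 3 OVX + v, 4 sham + v and 4 OVX + RAL libraries. The log2 fold change was -2.68 with a standard error of 2.46 (adjusted p = 0.992, edgeR). It ranged from -6.13 (without replicate 15) to -1.93 (without replicate 10) over the fits without single libraries, and the groups overlapped, so that no difference was detectable with these libraries. OVX + v replicate 10 had the most counts of *Lum* (78) in the smallest total of its group (1435156). The OVX + E2 libraries had totals of 1123053 to 1507667. The part of the library totals in the *Lum* counts was not tested. The part of the smaller number of detected genes in the OVX + E2 libraries in the *Lum* counts, and in the low *Pou3f4* values described next, was not tested. *Dcn*, the neighbour of *Lum*, had 724 ± 206 against 771 ± 157 CPM (SD, n = 5 each; log2 fold change -0.09).

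*Pou3f4* varied most among the OVX + E2 libraries. It had 145, 14.3, 0, 222 and 33.0 CPM in replicates 11 to 15, so that 3 libraries lay below every OVX + v library and 1 above. The 0 counts of replicate 13 allow a level of up to 3 counts, or 2.40 CPM. *Pou3f4* was at -0.87 on the log2 scale (standard error 0.608, adjusted p = 0.774, edgeR; exact permutation p = 0.143). In the 10 exact permutation tests that left out 1 library the p was 0.0317 to 0.254, and 1 of them, without replicate 14, was under 0.05. The difference on log2(CPM + 1) went from -2.38 to -1.18 without replicate 13, and the edgeR fold change ranged from -1.65 to -0.55 on the log2 scale over the fits without single libraries. *Vim* had 69.0, 94.4, 36.1, 3.56 and 33.0 CPM in the same libraries and was at -0.66 on the log2 scale (standard error 0.942, adjusted p = 1.00 after rounding, edgeR; exact permutation p = 0.183). Without single libraries the exact permutation p of *Vim* was 0.0476 (without replicate 12) to 0.373, with 1 of 10 under 0.05. Its difference on log2(CPM + 1) went from -1.12 to -0.41 without replicate 14, and its edgeR value ranged from -1.07 to -0.36. The lowest *Vim* value of the 20 libraries and the highest *Pou3f4* value were both those of replicate 14.

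*Otos* (2178 ± 554 CPM, SD, n = 5, log2 fold change -0.19), *Cp* (398 ± 102 CPM, -0.09) and *Tbx18* (187 ± 73.7 CPM, 0.14) overlapped with the OVX + v group. At an adjusted p of 0.05 by edgeR, 0 of the 8 genes were called (0.0584% of all genes), also with DESeq2 and with limma, and 1 of 8 (*Coch*) had an unadjusted p under 0.05 (13.9% of all genes). By the exact permutation test 0 of the 8 had a p under 0.05, beside 5.18% of all genes. The log2 fold change was below 0 for 7 of 8, with a median of -0.18 against -0.06 over all genes tested. With TMM normalization factors the all-gene median under estradiol moved to -0.17 and that of the 8 genes to -0.30.

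In the OVX + RAL group, which asks the same of raloxifene, *Vim* was the gene that differed most and was higher. It had 176, 119, 81.1, 196 and 124 CPM in replicates 16 to 20, and 80.4, 40.2, 79.4, 57.9 and 116 CPM in OVX + v replicates 6 to 10. Of the OVX + RAL libraries 4 lay above every OVX + v library, and replicate 18 lay between the highest and the next of them. The means of 139 ± 46.4 and 74.7 ± 28.3 CPM (SD, n = 5 each) gave a fold of 1.87, or 0.90 on the log2 scale (standard error 0.468), with an adjusted p = 0.440 by edgeR.

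The exact permutation p of *Vim* was 0.0159 (difference 0.91 on log2(CPM + 1)), and it was under 0.05 in 10 of the 10 tests that left out 1 library. *Vim* was the 1 gene of the 8 with such a p, where 4.14% of 14002 genes had one. Relative to *Coch* in the same library the difference was 1.09 with an exact permutation p of 0.0238. Markers of endothelial cells and pericytes, which also contain vimentin, had a summed level of 140 to 555 CPM in the OVX + RAL group. In the OVX + v group they had 177 to 416 CPM, with 4 of 6 markers above 0 in log2 fold change and 0 called by edgeR. Markers of Schwann cells, a type of glia, had 1928 to 2724 CPM and 1932 to 3232 CPM in the same groups. Of these, 2 of 6 were above 0 and 0 were called. The part of these cell types in the *Vim* difference was not tested.

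*Otos* spread widest in the OVX + RAL group. It had 4589, 3779, 2172, 2473 and 1607 CPM in replicates 16 to 20, of which 2 lay above every other library of the study. On the log2 scale it lay 0.23 above the OVX + v group (standard error 0.177, adjusted p = 0.945, edgeR; exact permutation p = 0.619). *Coch* had 8548, 5358, 5253, 5684 and 4197 CPM in the same libraries (log2 fold change -0.15, adjusted p = 1.00 after rounding, edgeR; exact permutation p = 0.413, and 0.0397 to 0.730 without single libraries, with 1 of 10, that without replicate 16, under 0.05), and its highest library, replicate 16, was also the highest for *Otos*.

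*Pou3f4* had 56.6, 57.6, 129, 155 and 76.9 CPM in replicates 16 to 20, with 3 libraries below every OVX + v library. Its log2 fold change was -0.67 (standard error 0.437, adjusted p = 0.781, edgeR; exact permutation p = 0.0873), and 1 of 10 exact permutation tests without single libraries was under 0.05 (0.0476 without replicate 19, others up to 0.167). For *Cp* 3 libraries lay below every OVX + v library too (327 ± 102 against 422 ± 103 CPM, SD, n = 5; log2 fold change -0.37, adjusted p = 0.974, edgeR; exact permutation p = 0.159). *Dcn* (838 ± 249 CPM, log2 fold change 0.12), *Tbx18* (170.1 ± 53.9 CPM, 0.01) and *Lum* (0.539 to 36.7 CPM, -0.20) were close to the OVX + v means. By edgeR 0 of the 8 genes were called at an adjusted p of 0.05 (0.0286% of all genes) and 0 at an unadjusted p under 0.05 (12.1% of all genes), and DESeq2 and limma called 0 at an adjusted p of 0.05. The log2 fold change was above 0 for 4 genes and below 0 for 4, with a median of -0.07 against -0.03 over all genes.

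The 3 comparisons share the 5 OVX + v libraries. In none of the 24 pairs of gene and comparison did the group lie wholly above or below the OVX + v group, where 0.499% (sham + v), 0.832% (OVX + E2) and 0.578% (OVX + RAL) of all genes did.

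**Figure D2:**
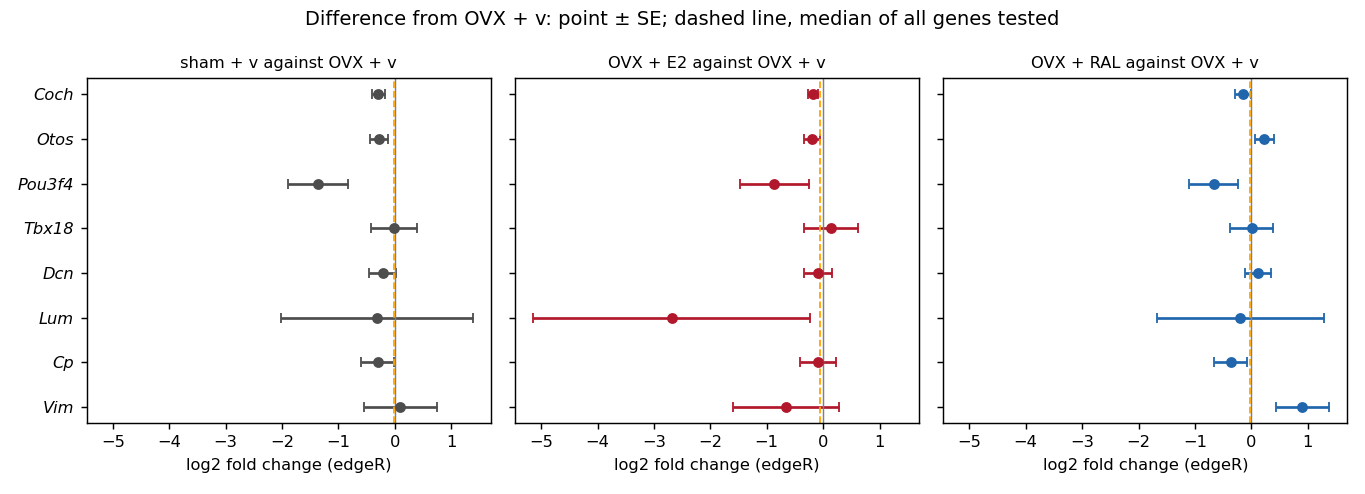
Log2 fold change from the OVX + v group by edgeR (horizontal axis) of the 8 genes, with 1 panel for each of the other 3 groups; points are estimates from 5 against 5 libraries, bars are ± 1 standard error, and the dashed line is the median of all genes tested. *Pou3f4* lies left of 0 in all 3 panels, from -1.36 to -0.67, and *Vim* at 0.90 in the OVX + RAL panel.

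The order of the 4 group means was the same for *Coch* and *Pou3f4*, another was shared by *Otos* and *Dcn*, and it differed among the other genes. Mean *Coch* and *Pou3f4* were highest in the OVX + v group (6457 and 151 CPM) and lowest in the sham + v group. Mean *Otos*, *Dcn* and *Vim* were highest in the OVX + RAL group (2924, 838 and 139 CPM). Mean *Cp* and *Lum* were highest in the OVX + v group and mean *Tbx18* in the OVX + E2 group. The sham + v mean was also the lowest for *Otos*, *Dcn* and *Tbx18*. The *Pou3f4* difference between the neighbouring OVX + v and OVX + RAL groups was 0.72 on log2(CPM + 1), with a pooled SD of 0.575. Its exact permutation p was 0.0873, as given above. In all 48 pairs of groups over the 8 genes the libraries of the 2 groups overlapped. The share of all genes without overlap was 0.499% to 0.832% against the OVX + v group and is not given for the other pairs. Of the 48 pairs, 4 had an exact permutation p under 0.05. *Pou3f4* in the sham + v group and *Vim* in the OVX + RAL group, each against OVX + v, are described above. The others were *Vim* in the OVX + E2 against the OVX + RAL group (difference -2.03, p = 0.0159) and *Lum* in the same groups (difference -2.66, p = 0.0476, exact permutation), where 5.32% of all genes had such a p. Between the sham + v group and the OVX + E2 or the OVX + RAL group 0 of the 8 genes had one, beside 4.03% and 4.05% of all genes.

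A test for any difference among the 4 groups (edgeR, all 20 libraries) called 0 of the 8 genes at an adjusted p of 0.05, where 0.141% of 14870 genes were called and 16.3% had an unadjusted p under 0.05. *Otos* came nearest, with an adjusted p of 0.134, followed by *Coch* with 0.225. *Otos* was called with TMM factors (adjusted p = 0.0367, where 0.175% of genes were called), without replicate 20 (adjusted p = 0.0408 and 0.149%) and without replicate 1 (adjusted p = 0.0494 and 0.19%). *Coch* was called without replicate 1 (adjusted p = 0.00100). DESeq2 and limma called 0 of the 8.

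Between libraries, the highest correlations among the 8 genes were those of *Coch* with *Dcn* and with *Otos*. The levels of a library share its total count and its dissection. Of the 28 pairs among the 8 genes, 1 passed an adjusted p of 0.05 by Pearson's r on log2(CPM + 1) over the 20 libraries, with a permutation test and Benjamini-Hochberg adjustment over the 28 pairs. This was *Coch* with *Dcn* (r = 0.71, p = 0.00047, adjusted p = 0.0132; Spearman's rho = 0.73, p = 0.00042, adjusted p = 0.0118). *Coch* and *Otos* had r = 0.61 (permutation p = 0.00375, adjusted p = 0.0525) and rho = 0.68 (p = 0.00095, adjusted p = 0.0133).

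With the values centred on their group, r was 0.71 for *Coch* and *Dcn* (permutation p = 0.00438, adjusted p = 0.106) and 0.62 for *Coch* and *Otos* (p = 0.00759, adjusted p = 0.106). Without replicates 1 and 16, which lie farthest from the median of *Coch*, r was 0.61 for *Coch* and *Dcn* (permutation p = 0.00757, adjusted p = 0.212) and 0.48 for *Coch* and *Otos* (p = 0.0458, adjusted p = 0.427). The adjusted call of *Coch* and *Dcn* was thus lost both ways, and leaving out other pairs of libraries was not tested. *Otos* and *Dcn* had r = 0.45 (permutation p = 0.0438, adjusted p = 0.294) and *Coch* and *Tbx18* r = 0.46 (permutation p = 0.0401, adjusted p = 0.294).

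For *Pou3f4* no correlation passed the test. Its highest r were 0.42 with *Cp* (permutation p = 0.0552) and 0.38 with *Dcn* (p = 0.0946), and it had 0.24 with *Coch* (p = 0.329), -0.05 with *Otos* (p = 0.838) and 0.02 with *Tbx18* (p = 0.942). In replicates 1 and 16, the 2 libraries with the most *Coch*, *Pou3f4* had 55.5 and 56.6 CPM, among the lower values of the 20. *Lum* and *Dcn* had r = 0.26 (permutation p = 0.273) and *Cp* and *Vim* r = 0.00 (p = 0.992).

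**Figure D3:**
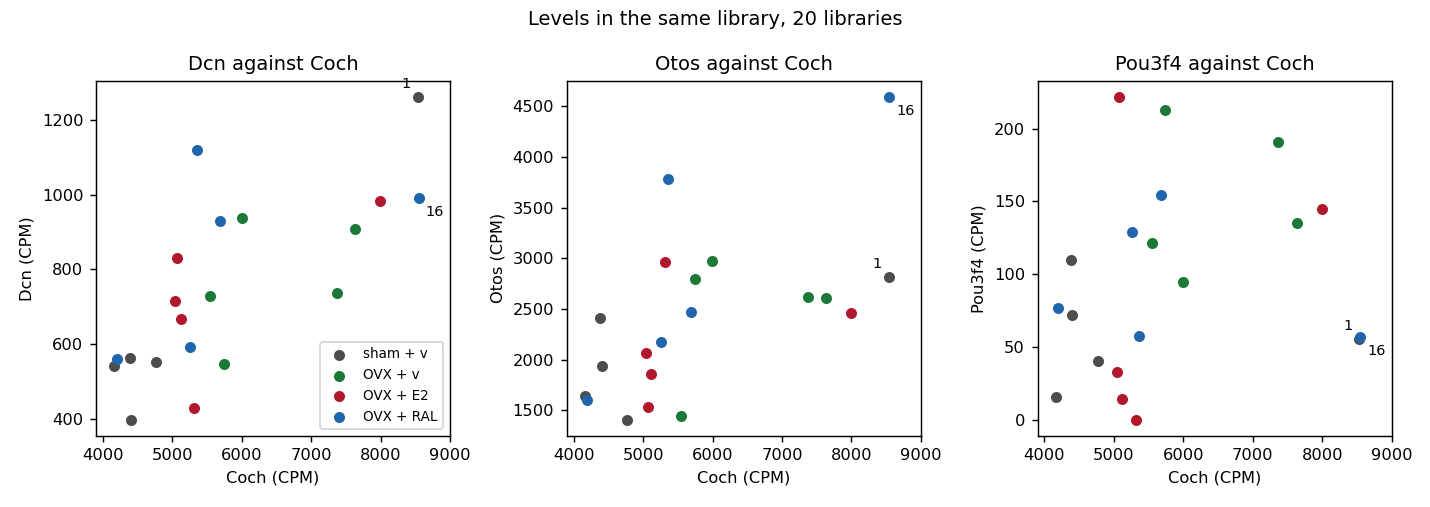
Levels of *Dcn*, *Otos* and *Pou3f4* (vertical axes, CPM) against that of *Coch* (horizontal axis, CPM) in the same library; every point is 1 of 20 libraries, coloured by group, with replicates 1 and 16 numbered. *Dcn* and *Otos* were higher in libraries with more *Coch* (r = 0.71 and 0.61 on the log2 scale), and *Pou3f4* had r = 0.24.

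**Figure D4:**
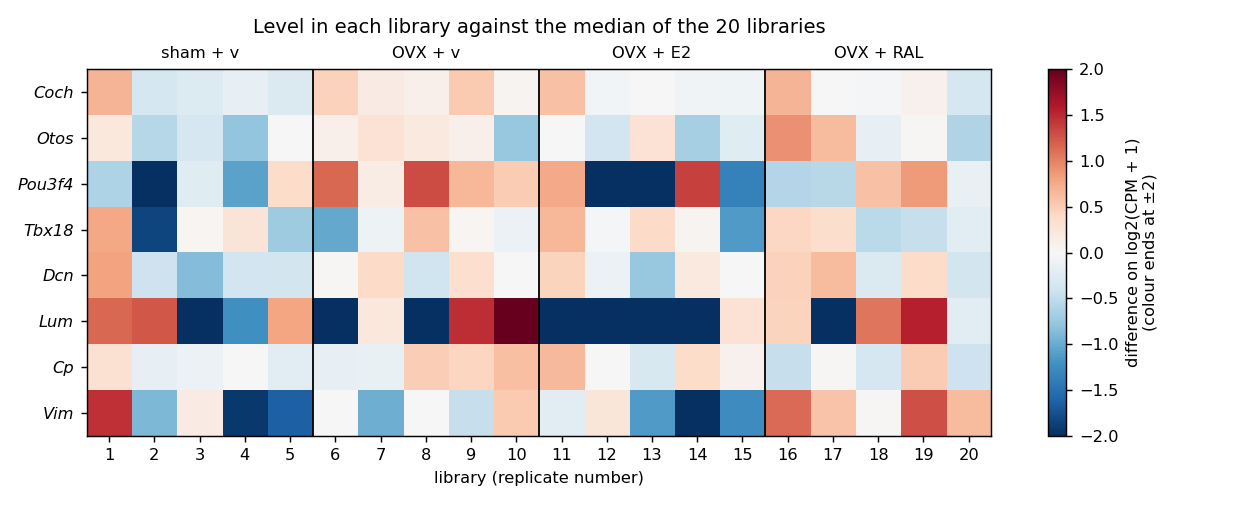
Level of the 8 genes (rows) in the 20 libraries (columns, numbered and separated by group) as the difference on log2(CPM + 1) from the median of the 20 libraries; red is higher, blue lower, and colours end at ± 2. Replicate 1 is red for every gene but *Pou3f4*, and the widest ranges are those of *Lum*, *Pou3f4* and *Vim*.

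*Lum* (mean 14.5 CPM) was left out of the search for similar patterns, which took genes with a mean of at least 20 CPM. For the others, the genes with the most similar pattern were found by Spearman's rho over the 20 libraries among 7261 genes, as a description. For *Coch* they were *Clu* (clusterin, 0.86), *Otor* (0.84) and *Apoe* (apolipoprotein E, 0.81), with *Dcn* in place 14 and *Otos* in place 24. *Otor* had 2287 CPM in replicate 1, the highest of the 20. For *Otos* the nearest were *Rbm17* (0.76), *Dync1h1* (0.75) and *Slc4a11* (0.74), with *Coch* in place 10. *Slc4a11*, a transporter gene of inner ear fibrocytes, had 903 and 1205 CPM in OVX + RAL replicates 16 and 17, the 2 libraries with the most *Otos*, and 0.525 to 487 CPM in the other 18.

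For *Dcn* they were *Mrps15* (0.82), *Eif1ax* (0.78) and *Atp1b3* (0.77), with *Coch* in place 7, and for *Tbx18* *Fam117a* (0.82), *Slc26a7* (0.77) and *Tor2a* (0.75). For *Pou3f4* they were *Pwwp2a* (0.75), *Akap11* (0.72) and *Ints4* (0.72), with *Coch* in place 789. For *Cp* they were *Ppm1a* (0.78), *Mapk8* (0.70) and *Fut11* (0.70), and for *Vim* *Psmg4* (0.86), *Krba1* (0.82) and *C1ra* (0.76).

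Of 20 other genes of inner ear fibrocytes and otic mesenchyme, 19 were tested in each comparison, and 1 was called at an adjusted p of 0.05 by edgeR. This was *Ptgds*, prostaglandin D2 synthase and the most abundant gene of the list, which was lower under estradiol, at -0.30 on the log2 scale (adjusted p = 6.22e-16, edgeR), although the libraries of the 2 groups overlapped. The *Ptgds* call was kept with limma and lost with DESeq2 (adjusted p = 0.350), with edgeR's default filter (1.00 after rounding) and with robust fitting (0.0796). In the sham + v comparison *Ptgds* was at -0.03 on the log2 scale with all libraries, and without replicate 1 it was called too, at -0.31 (adjusted p = 1.01e-08, edgeR). *S100a1*, a calcium-binding protein gene, was not called. Below 0 were 16 of 19 in the sham + v group (median log2 fold change -0.34), 16 of 19 in the OVX + E2 group (-0.30) and 11 of 19 in the OVX + RAL group (-0.11). In the test over all 20 libraries edgeR called *Ptgds* and *Slc4a11* (adjusted p = 5.91e-28 and 5.44e-12), and both calls were lost with DESeq2, limma, the default filter and robust fitting, with adjusted p-values of 0.289 to 0.924 for *Slc4a11*. *Slc4a11* had means of 78.7 ± 104, 192 ± 198, 31.8 ± 29.6 and 462 ± 552 CPM (SD, n = 5) in intact mice, after ovariectomy alone, with estradiol and with raloxifene. The raloxifene mean rests on replicates 16 and 17, since the median of that group was 119 CPM. The 5 values overlapped between all groups, and in the 3 comparisons with the OVX + v group the adjusted p of *Slc4a11* was 0.363, 0.1003 and 0.402 (edgeR). These values turned on single libraries. Under edgeR *Slc4a11* was called in the sham + v comparison without replicate 5 (adjusted p = 0.0132), with log2 fold changes of -2.52 to -0.59 over the fits without single libraries. In the OVX + E2 comparison it was called without replicates 10, 13 or 15 (lowest adjusted p = 0.0118, edgeR) and with all 4 groups in 1 fit (0.000217), with a range of -3.01 to -1.89. In the OVX + RAL comparison it was called without replicates 6, 8, 18, 19 or 20 (lowest adjusted p = 0.000314, edgeR), with a range of 0.52 to 1.96.

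Of 15 small leucine-rich proteoglycans other than decorin and lumican, 12 were tested and 0 called by edgeR in each comparison. *Chad* (chondroadherin), the most abundant, had 219 ± 37.1 CPM in the OVX + v group and 98.9 ± 58.7 CPM in the OVX + E2 group (SD, n = 5; log2 fold change -1.15, adjusted p = 0.351, edgeR). *Bgn* (biglycan) had 95.9 and 156 CPM, and *Ogn* (osteoglycin) 127 and 81.2 CPM, in the same groups. In the OVX + E2 group 10 of 12 lay below 0, with a median log2 fold change of -1.98 that was -0.99 once the 5 genes with no more than 3 counts in every library of 1 of the groups were set at the bound that 3 counts per library give. These libraries also had fewer genes with a count (7427 to 9680, against 10004 to 10694 in the OVX + v group), and its part in this median was not tested. The median was -0.48 in the sham + v group and -0.61 in the OVX + RAL group.

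Of 19 fibroblast genes, 16, 17 and 19 were tested in the comparisons of intact, estradiol and raloxifene mice with OVX + v, with 0 called by edgeR and medians of -0.11, 0.05 and 0.01 on the log2 scale. The most abundant were *Timp2* (1254 CPM over the 20 libraries), *Gsn* (1159 CPM) and *Col1a2* (211 CPM). Of 15 iron handling genes beside *Cp*, 12, 11 and 12 were tested and 0 called, with medians of -0.15, -0.06 and -0.10, and the most abundant were *Fth1* (1968 CPM), *Trf* (1314 CPM) and *Ftl1* (1229 CPM). Of 14 intermediate filament genes beside *Vim*, 12, 11 and 12 were tested and 0 called, with medians of -0.09, -0.15 and -0.05, and the most abundant were *Nefm* (127 CPM), *Krt18* (119 CPM) and *Synm* (98.5 CPM). Of 13 matrix enzymes and partners of cochlin, decorin and lumican, 11 were tested and 0 called in each comparison, with medians of -0.06, 0.36 and 0.02, where the 0.36 was 0.04 with 1 gene at its bound. The most abundant were *Mmp14* (matrix metalloproteinase 14), *Tgfb2* (148 CPM) and *Vit* (vitrin, 83.3 CPM). *Mmp14* had 252.4 ± 50.0 CPM in the OVX + v group and 107 ± 69.6 CPM in the OVX + E2 group (SD, n = 5; log2 fold change -1.23, adjusted p = 0.351, edgeR).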

How the data were processed

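RNA of the utricle was sequenced in 20 libraries, 5 per group, made from 1 ng of RNA by a 3′ end method (QuantSeq). The authors trimmed the first 12 nucleotides, removed reads under 20 nucleotides and mapped the rest to GRCm39 in CLC Genomics Workbench, and they deposited counts of reads per gene for each library. The same OVX + v counts stand in all 3 tables. The authors' own comparison columns (fold changes and p-values) were not used. The 8 genes and the gene lists were chosen with earlier results of these data known.

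CPM were computed from the column totals. Genes with a summed count of at least 10 over the 10 libraries of a comparison were tested in edgeR 4.0.16 (quasi-likelihood test, library size as the total count, Benjamini-Hochberg adjustment, threshold 0.05), and over all 20 libraries for any difference. The fits by edgeR, DESeq2 and limma were tried on simulated counts of the OVX + E2 comparison, with large changes only. The correlations and gene lists were not tested in this way. Single genes were also compared on log2(CPM + 1) with a two-sided exact permutation test over libraries. It was computed in numpy 2.4.6 and checked on random values against scipy 1.17.1. Correlations had 100000 permutations. Alternatives were TMM factors, DESeq2 1.42.0, limma 3.58.1 on log2(CPM + 1), other filters, robust fitting, a fit of all groups, and leaving out each library. Tests on levels relative to *Coch* and exact tests without single libraries were added after seeing the data. Named genes were the 8 genes, the 3 most abundant of each list and called genes of a list, and the 3 with the most similar pattern. *Car3*, a fibrocyte marker, and *Gm70685* fall outside this rule, and 1 gene that it names is not reported here. Limits given by 3 counts cover counting error only.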

Additional observations from a re-analysis of the deposited data

Results flagged for a closer look

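In 5 of the 32 sets of 5 values (8 genes in 4 groups) 1 library stood apart from the other 4 by Dixon's criterion, in which the gap to the nearest value exceeds 0.71 of the whole range, and chance gives about 1.6. *Coch* in sham + v replicate 1 was 8535 CPM, with the next library at 4772 CPM. *Coch* in OVX + E2 replicate 11 was 7992 CPM, with the next at 5315 CPM. *Dcn* in sham + v replicate 1 was 1261 CPM, with the next at 562 CPM. *Otos* in OVX + v replicate 10 was 1443 CPM, with the next at 2612 CPM. *Lum* in OVX + E2 replicate 15 was 14.7 CPM, with the next at 0.890 CPM, which is 1 count.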

How the results depend on the processing

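No paired analysis was possible because the groups compared share no library numbers. The cause of the changes below was not tested. The number of all genes called in the sham + v comparison (2) was 1 with TMM factors, 12 with DESeq2, 4 with limma, 0 with edgeR's default filter and 0 with robust fitting, and 1 to 10 without single libraries. In the OVX + E2 comparison (8) it was 38 with DESeq2, 1 with the default filter and 4 with robust fitting, and 6 to 17 without single libraries. In the OVX + RAL comparison (4) it was 0 with the default filter and 0 with robust fitting, and 3 to 11 without single libraries. For any difference among the groups (21) it was 2 with DESeq2, 1 with the default filter, 0 with limma and 5 with robust fitting, and 17 to 28 without single libraries. The number of exact permutation tests of the 8 genes under 0.05 (2 of 24) was 1 relative to *Coch* and 2 to 4 without single libraries. The number of pairs past an adjusted p of 0.05 by Pearson's r (1 of 28) was 0 with values centred on their group, 0 without the 2 libraries farthest from the median and 0 without replicates 1 and 16.

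Differences that changed sign had not passed a test with all libraries. On log2(CPM + 1) with limma they were -0.38 for *Vim* and 0.37 for *Lum* in the sham + v group and 0.67 for *Lum* in the OVX + RAL group. Relative to *Coch* they were 0.057 for *Otos*, 0.18 for *Tbx18*, 0.029 for *Dcn* and 0.064 for *Cp* in the sham + v group, and 0.0039 for *Otos*, 0.073 for *Dcn* and 0.10 for *Cp* in the OVX + E2 group. With TMM factors *Tbx18* was -0.0061 in the OVX + E2 group on log2(CPM + 1). Without single libraries the edgeR log2 fold changes ranged in the OVX + E2 group from -0.23 to 0.018 for *Cp*, -0.23 to 0.051 for *Dcn* and -0.047 to 0.35 for *Tbx18*. In the OVX + RAL group they ranged from -0.0057 to 0.24 for *Dcn*, -0.63 to 0.56 for *Lum* and -0.16 to 0.22 for *Tbx18*, and in the sham + v group from -0.64 to 0.44 for *Lum*, -0.32 to 0.23 for *Tbx18* and -0.75 to 0.34 for *Vim*. The differences on log2(CPM + 1) ranged in the OVX + E2 group from -0.21 to 0.033 for *Cp*, -0.24 to 0.060 for *Dcn* and -0.11 to 0.39 for *Tbx18*. In the OVX + RAL group they ranged from -0.027 to 0.22 for *Dcn*, -0.068 to 1.43 for *Lum*, -0.015 to 0.36 for *Otos* and -0.19 to 0.22 for *Tbx18*, and in the sham + v group from -0.37 to 1.20 for *Lum* and -0.43 to 0.22 for *Tbx18*. *Lum* had under 3 counts in 8 of 20 libraries, where 3 counts are 1.44 to 2.67 CPM.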
